A study of Mus musculus with 4 samples.

Results

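Areg, Penk, Il10, Klrg1, Il1rl1 and Ebi3 are 6 genes, of 27998 in the deposited matrices, that are known for their use by effector and tissue-resident regulatory T cells. They were chosen by name and followed in every T cell of 2 single-cell RNA libraries, with or without a UMI (a unique molecular identifier, the tag that marks 1 captured RNA molecule) of Foxp3, the lineage factor of regulatory T cells. Both libraries came from the pancreatic islets of NOD mice, all female and pre-diabetic. This inbred strain becomes diabetic through autoimmunity, and the labels name no engineered allele or treatment. Live cells that stained for TCR beta were sorted, and 5' RNA and T cell receptor libraries were made, 1 of each kind at 8 weeks and 1 at 16 weeks of age. How many mice were pooled is not given in the labels. With 1 library per age no difference between ages or cell classes has a replicate check, no p-value is given, and each interval is a 95% interval that covers counting error only.

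Amphiregulin (Areg) is a ligand of the epidermal growth factor receptor and is known for the tissue repair work of regulatory T cells outside lymphoid organs. Penk encodes proenkephalin, the precursor of opioid peptides, and is known from regulatory T cells of skin and other tissues. Il10 encodes an anti-inflammatory cytokine, and Ebi3 encodes a cytokine chain shared by IL-27 and IL-35. Il1rl1 encodes ST2, the receptor of the alarmin IL-33, and Klrg1 encodes an inhibitory receptor for cadherins that marks terminally differentiated effector cells among both CD8 and regulatory T cells.

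In the mouse build mm10, with the GENCODE M21 annotation, the gene bodies lie at chr5:91139599-91148432 on the plus strand for Areg, chr4:4133531-4138819 on the minus strand for Penk and chr1:131019845-131024974 on the plus strand for Il10. Ebi3 lies at chr17:55952640-55957022 on the plus strand, Klrg1 at chr6:122270596-122282882 on the minus strand and Il1rl1 at chr1:40429570-40465415 on the plus strand. All 6 are protein-coding. For Areg, Ebi3 and Il1rl1, the 3 of the 6 members for which the RefSeq table held start windows, the 150 bases before a RefSeq transcription start are shown on the plus strand of GRCm38.p6, with motif matches in capitals.
Areg, chr5:91139449-91139598: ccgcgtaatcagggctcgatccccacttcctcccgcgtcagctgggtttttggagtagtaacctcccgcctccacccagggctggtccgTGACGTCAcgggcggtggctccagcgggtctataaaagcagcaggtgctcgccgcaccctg
Ebi3, chr17:55952473-55952622: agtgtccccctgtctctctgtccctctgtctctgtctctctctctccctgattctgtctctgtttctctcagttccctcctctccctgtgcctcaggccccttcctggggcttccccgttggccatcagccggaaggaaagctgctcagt
Il1rl1, chr1:40439479-40439628: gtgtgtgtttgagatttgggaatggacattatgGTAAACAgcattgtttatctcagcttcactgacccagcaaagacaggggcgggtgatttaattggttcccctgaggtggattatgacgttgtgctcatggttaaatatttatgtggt
The capitals in the Areg stretch are the letters of a cAMP response element, TGACGTCA, 61 bases before the start. The same letters occur in 588 of 32851 RefSeq start windows of 300 bases (1.79%). In the Il1rl1 stretch, which precedes the downstream of its listed starts, the capitals are the reverse complement of the forkhead letters TGTTTAC, 117 bases before the start, and 3.65% of all windows hold these letters on either strand. The window at the upstream Il1rl1 start held no such letters. Neither an AP-1 motif (TGANTCA, in 7.81% of windows) nor a STAT motif (TTCNNNGAA, in 8.30%) was found in the windows of these genes. GC content was 64.7% for the Areg stretch, 58.7% for Ebi3 and 42.7% for Il1rl1.

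The files held 2043 barcodes with 8659371 UMIs at 8 weeks and 2107 barcodes with 8183747 UMIs at 16 weeks, and 5 barcodes were shared by both. After filters on genes per cell and mitochondrial share, and without cells of an acinar-like and a B-like cluster, 1830 and 1880 T cells were left. A Cd3d, Cd3e or Cd3g UMI was present in 99.6% and 99.9% of them, and a productive TCR beta chain in 84.7% and 85.1%. Foxp3 UMIs were found in 234 T cells (12.8%) at 8 weeks and in 188 (10%) at 16 weeks, and these are the Foxp3-positive cells. The median cell held 5295 and 5232 UMIs among Foxp3-positive cells against 2860.5 and 2846 among Foxp3-negative cells, so shares of cells with a UMI are also given after cells of 1700 or more UMIs were thinned to 1700. This left out 23 and 16 shallower Foxp3-positive and 157 and 132 Foxp3-negative cells, and 211, 172, 1439 and 1560 remained.

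All 6 genes were higher in Foxp3-positive than in Foxp3-negative cells at 16 weeks, and 5 of 6 at 8 weeks, all but Klrg1. A gene was called higher where its summed level, in UMIs per 1000000 UMIs of the class (CPM), differed by a log2 ratio of 1 or more and the interval excluded 0. Of all genes measured, 3.56% passed this rule upward at 8 weeks and 4.78% at 16 weeks, and 2.18% and 1.52% passed it downward. At least 1 of the 6 was detected in 89 of 234 Foxp3-positive cells at 8 weeks (38.0%, interval 31.8 to 44.6) and in 89 of 188 at 16 weeks (47.3%, interval 40 to 54.7). Among Foxp3-negative cells these shares were 125 of 1596 (7.83%) and 112 of 1692 (6.62%). At equal depth the shares were 22.3% and 33.7% of Foxp3-positive cells and 4.59% and 4.10% of Foxp3-negative cells.

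**Figure D1:**
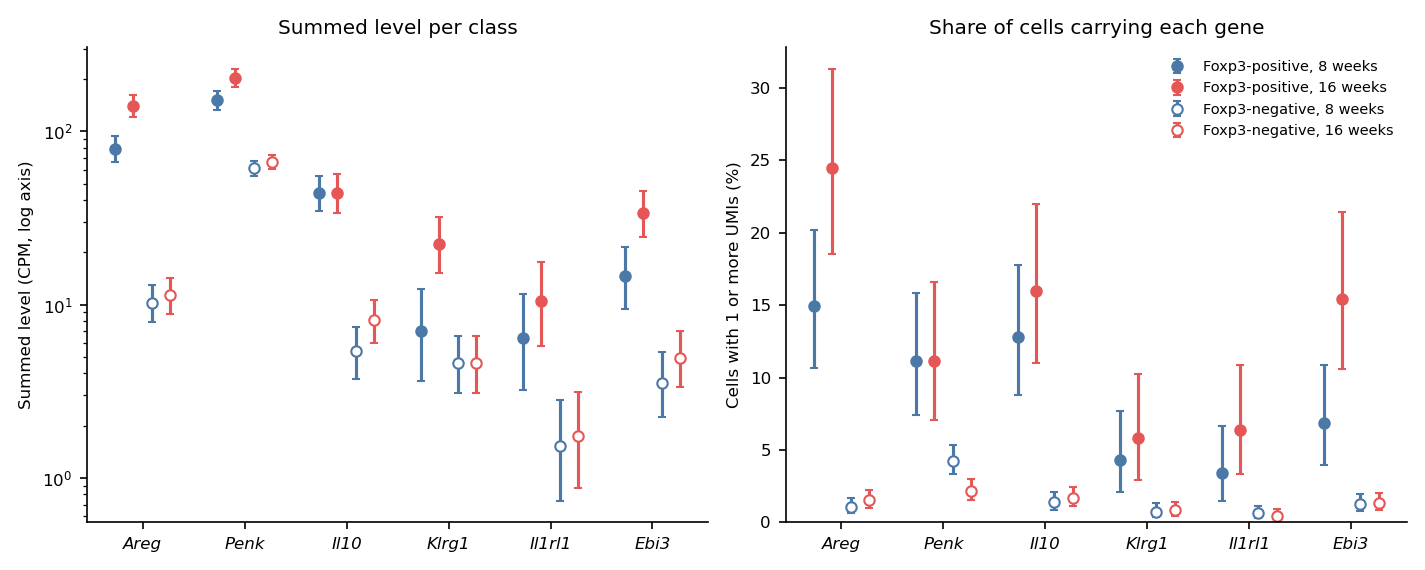
Level of each gene in UMIs per 1000000 UMIs (CPM, log axis) in Foxp3-positive and Foxp3-negative T cells at 8 and 16 weeks, 1 library per age; beside it the share of cells with a UMI (percent). Points are values and bars are 95% Poisson and Clopper-Pearson intervals that cover counting error only. Areg stood at 79.0 and 140 CPM in Foxp3-positive cells against 10.3 and 11.3 in Foxp3-negative cells.

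Among the secreted factors, Areg, the repair ligand, had 135 UMIs in 35 of 234 Foxp3-positive cells at 8 weeks (79.0 CPM, interval 66.3 to 93.5) and 187 UMIs in 46 of 188 at 16 weeks (140 CPM, interval 121 to 162). Foxp3-negative cells held 67 Areg UMIs in 17 of 1596 cells (10.3 CPM) and 71 in 26 of 1692 (11.3 CPM). The Areg log2 ratio was 2.94 (interval 2.51 to 3.39) at 8 weeks and 3.63 (3.23 to 4.05) at 16 weeks, with no overlap of the 2 classes' intervals at either age.

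Penk was spread differently. Its Foxp3-positive level was 152 CPM (interval 134 to 171) at 8 weeks and 205 CPM (181 to 230) at 16 weeks, from 26 and 21 cells. In Foxp3-negative cells it was 61.2 and 66.7 CPM, from 68 and 37 cells. The log2 ratios were 1.31 (1.08 to 1.54) and 1.62 (1.39 to 1.84), and 39.4% of Penk UMIs lay in Foxp3-positive cells at both ages. Few cells held much of the Penk RNA: the median Foxp3-positive carrier had 4.5 and 8 Penk UMIs, and the highest had 48 and 67, which was 18.5% and 24.5% of all Penk UMIs of the class.

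Il10, the anti-inflammatory cytokine, had 75 UMIs in 30 Foxp3-positive cells at 8 weeks (43.9 CPM) and 59 UMIs in 30 cells at 16 weeks (44.2 CPM). In Foxp3-negative cells 35 UMIs in 22 cells gave 5.37 CPM and 51 UMIs in 29 cells gave 8.10 CPM. Its log2 ratio was 3.02 (2.44 to 3.65) at 8 weeks and 2.45 (1.88 to 3.02) at 16 weeks. Ebi3, the shared cytokine chain, was at 14.6 CPM (9.47 to 21.6) and 33.7 CPM (24.6 to 45.1) in Foxp3-positive cells, from 16 and 29 cells. Foxp3-negative cells were at 3.53 and 4.93 CPM, and the Ebi3 log2 ratios were 2.05 (1.18 to 2.94) and 2.77 (2.08 to 3.48). Both cytokine genes were thus above the Foxp3-negative level in each library.

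The receptors were sparse. Klrg1 had 12 UMIs in 10 Foxp3-positive cells at 8 weeks (7.02 CPM, interval 3.63 to 12.3) and 30 UMIs in 11 cells at 16 weeks (22.5 CPM, 15.2 to 32.1), with 25% and 30% of them in 1 cell. Foxp3-negative cells were at 4.6 and 4.61 CPM, and the log2 ratio was 0.65 (interval -0.49 to 1.62) at 8 weeks and 2.29 (1.5 to 3.07) at 16 weeks. Il1rl1, the IL-33 receptor, had 11 and 14 UMIs in 8 and 12 Foxp3-positive cells (6.44 and 10.5 CPM) and 10 and 11 UMIs in 10 and 8 Foxp3-negative cells (1.53 and 1.75 CPM). Its log2 ratios of 2.06 (0.70 to 3.46) and 2.57 (1.34 to 3.87) had wide intervals at these counts.

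Free RNA and doublets were looked at beside these values. In naive or stem-like T-like cells, which are not expected to use these genes, 2 of 446 cells at 8 weeks (0.448%) and 1 of 626 at 16 weeks (0.16%) had a UMI of any member, below the shares in both Foxp3 classes. A cell for which 2 or more productive beta chains were assembled may be a doublet or may carry a dual receptor. Such cells made up 47.0% and 48.8% of Foxp3-positive carriers (cells with a UMI of any member) that had a beta chain. This share was 24.8% and 25.8% in Foxp3-positive cells with no member, 25.6% and 35.7% in Foxp3-negative carriers and 8.11% and 10.2% in the remaining Foxp3-negative cells. No doublet caller was run, and carriers were also the deeper cells: the median held 7550 and 7151 UMIs in Foxp3-positive carriers against 4162 and 4031 in Foxp3-positive cells with no member. With these cells left out, 30.7% and 38.7% of Foxp3-positive and 6.48% and 5.06% of Foxp3-negative cells carried a member, and the same 5 and 6 genes were called higher, with Areg at 3.34 and 4.97 and Penk at 1.45 and 2.14.

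Markers of other cells and states moved with the Foxp3 classes. Proliferation genes summed to 1772 and 1191 CPM in Foxp3-positive against 895 and 489 CPM in Foxp3-negative cells. A list of 8 acinar markers was at 121 and 119 against 51.2 and 67.2 CPM, and a list of 5 B cell markers at 66.7 and 93.0 against 25.6 and 25.4 CPM, with Ms4a1 at 0 in both classes. At 16 weeks Cd79a was also at 0 in both classes. Islet endocrine markers were at 14.6 and 42.0 against 7.97 and 7.63 CPM. The part of acinar, B and endocrine RNA in the class differences was not tested. Without the proliferating-like cluster 5 and 6 genes were called higher, with Areg at 3.48 and 3.63 and Penk at 1.73 and 2.08.

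The Penk difference depended on how regulatory cells were defined. With at least 2 Foxp3 UMIs required, Penk was at 0.82 and 0.76 and was not called, and 3 of 6 and 5 of 6 genes were called. Among Cd4-gated cells (Cd4 detected, Cd8a and Cd8b1 not detected), Penk was at 0.39 and 0.87, while Areg was at 2.11 and 3.81.

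**Figure D2:**
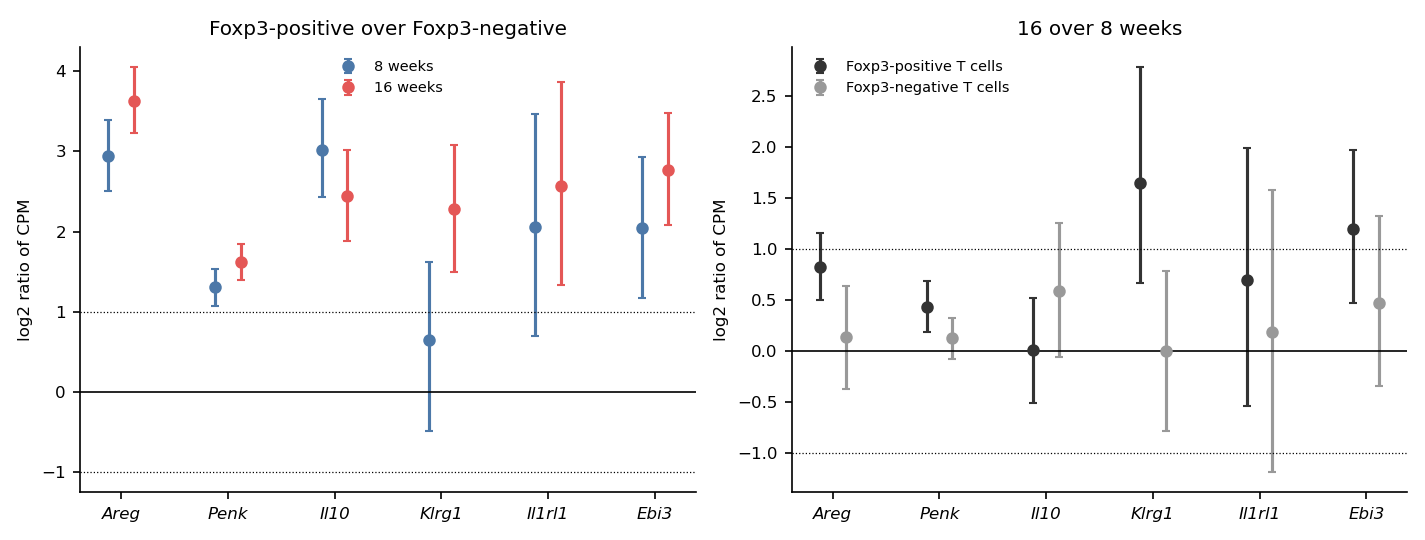
Log2 ratios of summed levels for the 6 genes, Foxp3-positive over Foxp3-negative at each age and 16 over 8 weeks in each Foxp3 class, with exact 95% counting intervals; the dotted lines mark a log2 ratio of 1 in either direction. In the class comparison at 8 weeks Areg and Il10 lie highest, at 2.94 and 3.02, and the Klrg1 interval crosses 0.

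The clusters, built without these 6 genes, showed where the carriers were. The regulatory T-like cluster, led by Lag3, Ctla4 and Foxp3, held 189 and 180 cells, of which 60.8% and 54.4% had a Foxp3 UMI. Any member was detected in 49.2% and 55.6% of its cells: Areg in 15.3% and 26.1%, Penk in 16.9% and 13.3%, Il10 in 19.0% and 24.4%, and Ebi3 in 7.41% and 12.2%. Klrg1 was found in 5.29% and 5.56% of its cells and Il1rl1 in 4.76% and 7.22%. Of the Foxp3-positive carriers, 60 of 89 (67.4%) and 67 of 89 (75.3%) sat in this cluster, which held 49.1% and 52.1% of all Foxp3-positive cells. The proliferating-like cluster, whose median cell held 14579 UMIs, had a member in 33.9% and 45.6% of cells.

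**Figure D3:**
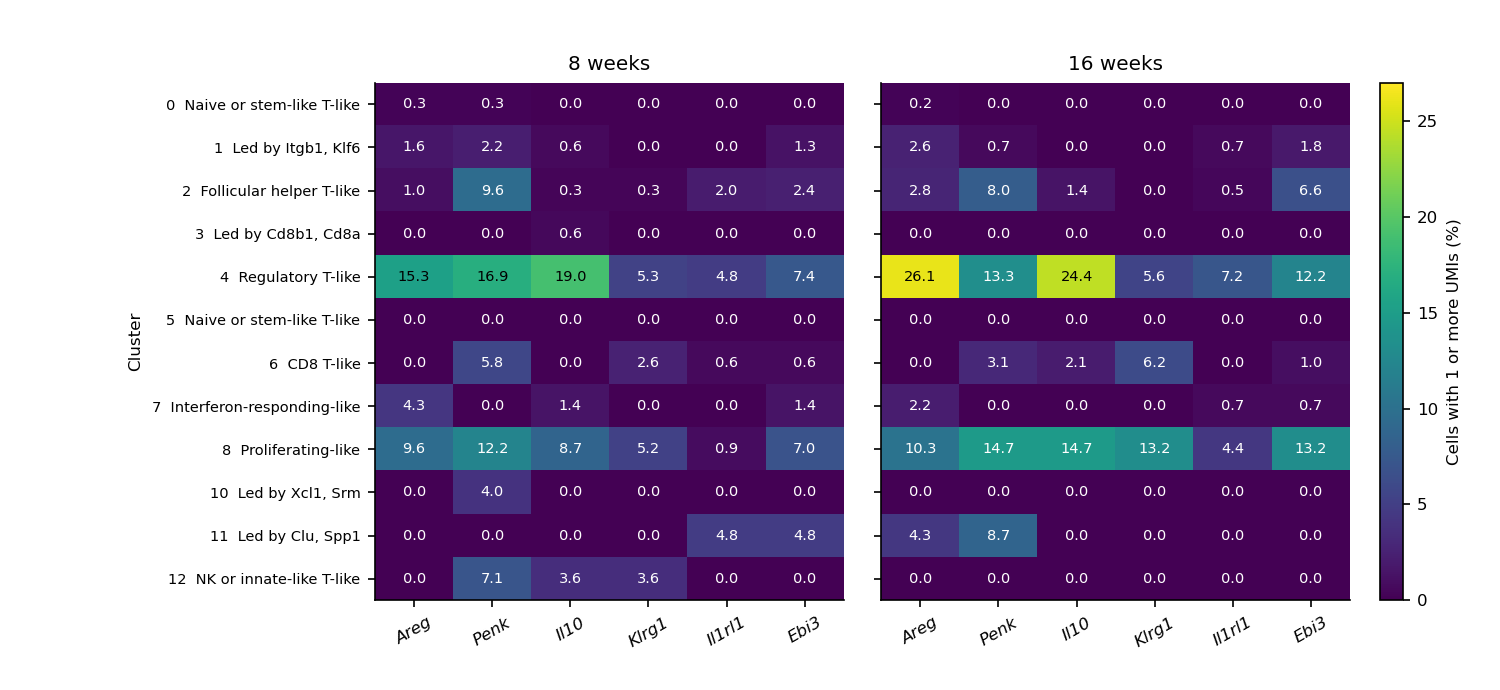
Share of cells with a UMI of each gene (percent, color scale and numbers) in each cluster of T cells at 8 and 16 weeks, 1 library per age. The regulatory T-like cluster has UMIs of all 6 genes, the follicular helper T-like cluster mainly of Penk (9.56% and 7.98%), and the cluster led by Cd8b1 and Cd8a is near 0.

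Within the regulatory T-like cluster, cells with a Foxp3 UMI had more Areg than cells without one, while the Il10 intervals spanned 0. Areg was at 158 CPM in its Foxp3-positive and 75.9 CPM in its Foxp3-negative cells at 8 weeks (log2 ratio 1.04) and at 204 and 48.3 CPM at 16 weeks (2.05), and both were called, where 1.52% and 1.80% of genes were called higher. Il10 was at 61.4 and 66.5 CPM at 8 weeks and at 68.0 and 69.3 CPM at 16 weeks, with log2 ratios of -0.12 (interval -0.83 to 0.62) and -0.03 (-0.69 to 0.66). Penk was at 0.49 and 1.64, called at 16 weeks, and Ebi3 at 0.34 and 0.99, not called. Klrg1 had 6 UMIs in the Foxp3-positive and 16 in the Foxp3-negative cells of the cluster at 8 weeks. Its log2 ratio was -2.14 (-3.85 to -0.79), where 1.18% of genes were called lower. At 16 weeks it had 25 against 7 UMIs, and the ratio of 1.17 was not called. The Foxp3-negative Areg and Klrg1 UMIs of the cluster at 8 weeks came from the few carrier cells counted below. Both calls thus rest on few cells, and the intervals leave out variation between cells. Outside the cluster Areg (1.78 and 2.99), Il10 (4.67 and 2.43) and Ebi3 (1.85 and 3.05) were called higher in Foxp3-positive cells at both ages, against 4.42% and 5.05% of all genes. Penk was not called there. It was at -0.05 (interval -0.53 to 0.38) at 8 weeks and, below 0 but under the fold, at -0.85 (-1.59 to -0.25) at 16 weeks.

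Seen from the carriers, 41.6% (interval 34.9 to 48.5) of cells with any member had a Foxp3 UMI at 8 weeks and 44.3% (37.3 to 51.4) at 16 weeks, against 8.97% and 5.90% of cells with no member. At 1700 UMIs per cell these shares were 21.2% and 24.6% against 4.29% and 3.35%. Foxp3 UMIs were found in 67.3% and 63.9% of Areg carriers, 57.7% and 50.8% of Il10 carriers, 44.4% and 55.8% of Ebi3 carriers, 45.5% and 44.0% of Klrg1 carriers and 44.4% and 60.0% of Il1rl1 carriers. Among Penk carriers it was 27.7% and 36.2%. Thinned to 1700 UMIs, the shares were 32% and 40% for Areg, 26.1% and 26.3% for Il10, and 33.3% at both ages for Ebi3. Foxp3 was kept in 0 of 6 and 3 of 14 Klrg1 carriers and in 3 of 7 and 1 of 6 Il1rl1 carriers, too few to compare. Penk carriers were at 7.84% against 5.38% of cells without Penk at 8 weeks, and at 15.8% against 5% at 16 weeks. The Penk difference at 8 weeks was thus small at equal depth. A cell with no Foxp3 UMI can still hold Foxp3 RNA, since at 1700 UMIs 42.7% and 48.8% of the Foxp3-positive cells kept a Foxp3 UMI.

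The Foxp3-negative carriers differed by gene. Of the Foxp3-negative Il10 carriers, 16 of 22 at 8 weeks and 19 of 29 at 16 weeks (72.7% and 65.5%) lay in the regulatory T-like cluster, which held 4.64% and 4.85% of all Foxp3-negative cells. Foxp3-negative Penk carriers lay most often in the follicular helper T-like cluster, 26 of 68 and 17 of 37 (38.2% and 45.9%), which held 17.2% and 12.1% of the class. For Klrg1, 4 of 12 and 6 of 14 lay in the CD8 T-like cluster, led by Ccl5, Ctla2a and Klrc1, which held 9.52% and 5.5% of the class. Another 4 of 12 and 3 of 14 lay in the regulatory T-like cluster, and 2 of 12 and 5 of 14 in the proliferating-like cluster. Foxp3-negative Ebi3 carriers were in the follicular helper T-like cluster in 5 of 20 and 12 of 23 cases, and Foxp3-negative Areg carriers in the regulatory T-like cluster in 3 of 17 and 9 of 26.

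Other regulatory genes were read in the same cells. At 1700 UMIs per cell, at least 3 of 11 identity genes (among them Il2ra, Ikzf2, Ctla4 and Tnfrsf18, with Foxp3 left out) were detected in 45.8% and 48.1% of Foxp3-negative carriers, 12.4% and 7.21% of Foxp3-negative cells with no member, and 68.3% and 64.0% of Foxp3-positive cells with no member. By gene, 81.8% and 69.2% of Foxp3-negative Il10 carriers reached 3 identity genes. The shares were 47.1% and 77.3% for Areg, 39.1% and 45.9% for Penk, 36.8% and 34.8% for Ebi3, 60.0% and 57.1% for Il1rl1, and 50% and 21.4% for Klrg1. These intervals overlapped that of Foxp3-positive cells with no member for all 6 genes, other than Penk at 8 weeks (27.1 to 52.1 against 59.4 to 76.3) and Klrg1 at 16 weeks (4.66 to 50.8 against 52.9 to 74.0). Several were wide, with as few as 7 cells for a gene. For Foxp3-negative carriers of any member the interval lay apart at 8 weeks (36.7 to 55.2) and overlapped at 16 weeks (38.2 to 58.1). Cells with 2 or more beta chains were more frequent in these carriers (values above), and their part in these shares was not tested.

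**Figure D4:**
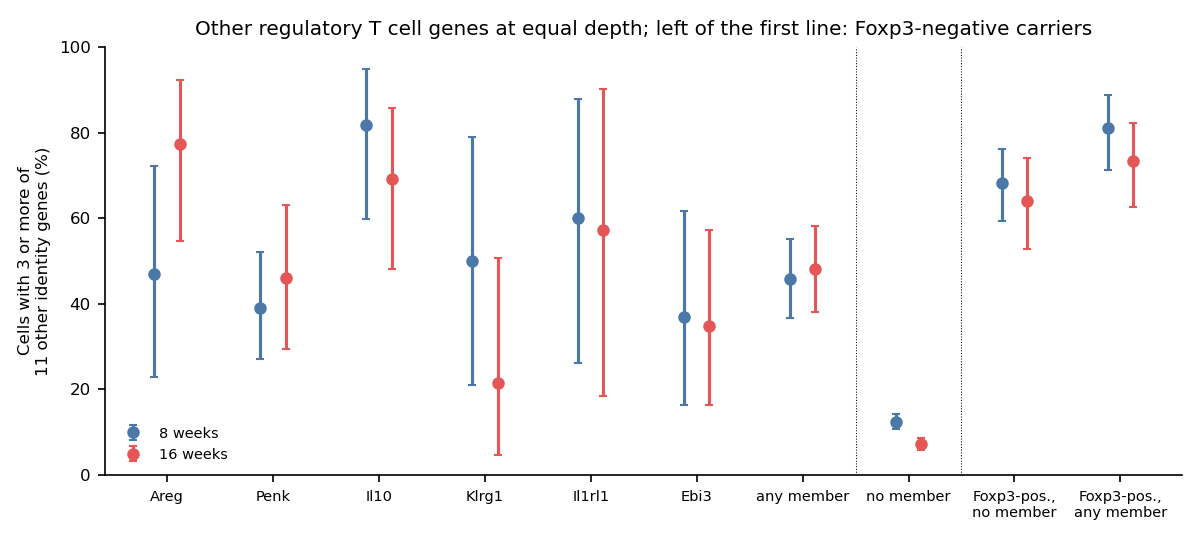
Share of cells (percent) with at least 3 of the 11 other identity genes in cells of 1700 or more UMIs thinned to 1700, for Foxp3-negative carriers of each gene, and to the right of the dotted lines for Foxp3-negative cells with no member and for Foxp3-positive cells, at 8 and 16 weeks; bars are 95% Clopper-Pearson intervals. Il10 carriers, at 81.8% and 69.2%, lie far above Foxp3-negative cells with no member, at 12.4% and 7.21%.

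T cell receptors gave a readout that the choice of genes did not use. Among Foxp3-negative cells with a paired receptor at 8 weeks, 31 of 104 carriers (29.8%, interval 21.2 to 39.6) belonged to a clone of 2 or more cells, against 109 of 1042 cells with no member (10.5%, 8.67 to 12.5). Penk carriers made up most of these, with 23 of 56 (41.1%, 28.1 to 55.0) spread over 16 clones, of which the largest had 11 cells. In 5 clones at least 2 cells carried Penk, with at most 3 carriers in a clone of 7. Cells of a clone share this status, but the intervals count each cell as an independent draw. The intervals of these clone shares are therefore too narrow. At 16 weeks the shares were 7 of 84 carriers (8.33%) and 58 of 1114 (5.21%), with overlapping intervals, and 4 of 30 for Penk. Foxp3-positive carriers were rarely in clones, 6 of 77 (7.79%) and 2 of 81 (2.47%), against 4.39% and 5.00% of Foxp3-positive cells with no member. Clones were matched on all alpha and beta chains of a cell together. A cell with 2 or more beta chains thus matched only a cell with the same set. Such cells were more frequent in carriers of both Foxp3 classes (values above), and their part in these shares was not tested. Nearly all naive or stem-like T-like cells had no member, while Foxp3-negative Penk carriers lay most often in the follicular helper T-like cluster. Clone shares were not compared within clusters, so the part of cell state in the clone differences was not tested.

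Co-detection was more frequent in Foxp3-positive than in Foxp3-negative carriers at 16 weeks, with intervals apart in all cells and overlapping at equal depth. This share also rises where each gene is found in more cells. Any member was in 47.3% of Foxp3-positive and 6.62% of Foxp3-negative cells at 16 weeks. The share expected from separate detection was not worked out, so the class difference cannot show more pairing in either class. At least 2 of the 6 genes were found in 26 of 89 Foxp3-positive carriers at 8 weeks (29.2%, interval 20.1 to 39.8) and 43 of 89 at 16 weeks (48.3%, 37.6 to 59.2), and in 21 of 125 (16.8%, 10.7 to 24.5) and 18 of 112 (16.1%, 9.81 to 24.2) Foxp3-negative carriers. After thinning the shares were 12.8% and 20.7% against 7.58% and 6.25%, with overlapping intervals, and without cells of 2 or more beta chains 24% and 47.9% against 13.7% and 10.4%. No cell carried more than 4 of the genes.

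Of the 15 pairs, 13 at 8 weeks and 14 at 16 weeks were found together more often in Foxp3-positive carriers of the first gene than in the other Foxp3-positive cells, and after thinning 5 and 8 were. Among Foxp3-negative cells 12 and 14 of the 15 pairs were, and after thinning 4 and 5, so pairing was not particular to Foxp3-positive cells. Thinning left no cell with both genes for some pairs, so the thinned counts cannot separate pairing from depth. The pairs described here were chosen after their values were seen. Areg with Il10 was in 9 and 13 Foxp3-positive cells. Il10 was detected in 25.7% and 28.3% of Areg carriers and in 10.6% and 12% of the other Foxp3-positive cells, and, among cells with fewer than 2 beta chains, in 15% and 29.2% against 8.39% and 9%. Areg with Penk was in 6 and 11 cells, with Penk in 17.1% and 23.9% of Areg carriers against 10.1% and 7.04% of other cells. Both pairings were above the share in other cells at each age, also without the cells of 2 or more beta chains. After thinning, Areg with Il10 was left in 1 and 2 cells (6.67% and 7.41% against 5.61% and 3.45%) and Areg with Penk in 1 and 4 (6.67% and 14.8% against 7.14% and 6.21%). These thinned counts were too few to tell the pairings from depth. Among the receptors, 2 of 10 Klrg1 carriers at 8 weeks and 6 of 11 at 16 weeks also held Ebi3 (20% and 54.5% against 6.25% and 13%), and 4 of 8 and 6 of 12 Il1rl1 carriers held Areg (50% at both ages, against 13.7% and 22.7%). Without the cells of 2 or more beta chains these were 4 of 7 for Klrg1 with Ebi3, and 3 of 5 and 1 of 4 for Il1rl1 with Areg, too few to set an order. Other pairs went the other way in 1 library: 0 of 26 Penk carriers held Ebi3 at 8 weeks (interval 0 to 13.2%, against 7.69%) but 5 of 21 at 16 weeks (23.8% against 14.4%), and 2 of 30 Il10 carriers held Klrg1 at 8 weeks but 0 of 30 at 16 weeks (interval 0 to 11.6%, against 6.96%).

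**Figure D5:**
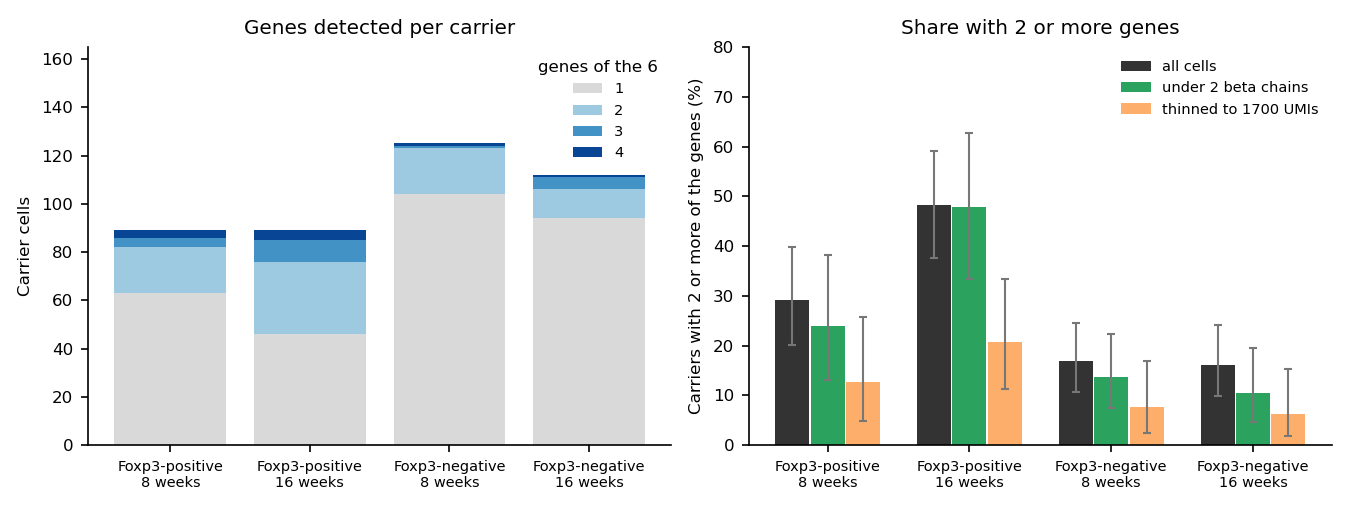
Carrier cells by how many of the 6 genes were detected in them, as stacked cell counts, and the share of carriers with 2 or more genes (percent, with 95% Clopper-Pearson intervals) in all cells, in cells with fewer than 2 beta chains and after thinning. Carriers of 2 or more genes made up 29.2% and 48.3% of Foxp3-positive and 16.8% and 16.1% of Foxp3-negative carriers.

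Between the libraries of 8 and 16 weeks, 2 of the 6 genes were called higher in Foxp3-positive cells at 16 weeks, Klrg1 (log2 ratio 1.64, interval 0.67 to 2.78) and Ebi3 (1.19, 0.47 to 1.97), where 1.49% of all genes were called higher. Areg was at 0.83 (0.50 to 1.16) and Penk at 0.43 (0.18 to 0.68), above 0 but under the fold. Il10 was level, at 0.01 (-0.51 to 0.52), and Il1rl1 was at 0.69 (-0.54 to 1.99). Neither call was steady. Without cells of 2 or more beta chains Ebi3 was at 0.97 (0.02 to 1.98) and Klrg1 at 1.77, and with Foxp3-negative cells of the regulatory T-like cluster counted as positive neither was called (Klrg1 0.63, Ebi3 0.95). Taken as a mean of per-cell CPM, Areg was at -0.13. Age and library cannot be told apart here.

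In Foxp3-negative cells none of the 6 passed the rule with age, where 0.396% of genes were called higher and 1.73% lower. The log2 ratios ran from 0.00 for Klrg1 to 0.59 (-0.05 to 1.26) for Il10. Among Foxp3-negative Cd4-gated cells Ebi3 was called (1.12, interval 0.12 to 2.23), where 0.876% of genes were called higher. In the regulatory T-like cluster all 6 were within 0.48 of 0 and none was called, where 1.55% of genes were called higher. In the proliferating-like cluster Areg (1.70), Penk (1.65) and Klrg1 (1.89) were called higher at 16 weeks, where 0.988% of genes were, with 35.7%, 53.7% and 35.0% of their UMIs at 16 weeks in 1 cell each. In the follicular helper T-like cluster Ebi3 had 7 UMIs at 8 weeks (4.96 CPM) and 20 at 16 weeks (22.1 CPM), a log2 ratio of 2.09 (0.85 to 3.64) where 1.69% of genes were called higher, and Penk went from 148 to 282 CPM (0.93, 0.66 to 1.20), not called.

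The carriers were then compared with the other cells of their Foxp3 class over all genes, with a gene counted where its log2 ratio was 1 or more in both libraries. Foxp3-positive carriers of any member had 13 such genes of 6031 (0.216%), among them Il21 (1.38 and 1.91), which encodes a helper cytokine, and Prdm1 (1.28 and 1.16), which encodes the effector regulator Blimp-1. By the same rule 3 genes (0.0497%) were lower. Follicular helper T cell markers were at 1053 and 1074 CPM in these carriers against 818 and 733 CPM in Foxp3-positive cells with no member. Cells of 2 or more beta chains were also more frequent in these carriers (values above). The part of such cells and of helper cell RNA in these differences was not tested. Il10 carriers had 44 higher (0.729%) and 22 lower (0.365%). Ccl4, a chemokine gene, was at 575 against 161 CPM at 8 weeks and 777 against 250 CPM at 16 weeks. Ctla4, the inhibitory receptor gene, was at 989 against 371 and 1020 against 332 CPM, and Prdm1 at 70.0 against 24.6 and 140 against 32.1 CPM. These were among the genes higher in Il10 carriers in each library.

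Areg carriers among Foxp3-positive cells had 15 such genes higher (0.249%) and 6 lower (0.0994%). Il1r2, the decoy receptor of IL-1, was at 108 against 18.4 CPM and 98.5 against 25.6 CPM, with 46.9% and 30.2% of its carrier UMIs in 1 cell. Carriers of Penk had 13 genes higher (0.215%) and 22 lower (0.365%), of Klrg1 56 (0.928%) and 46 (0.762%), of Il1rl1 101 (1.67%) and 66 (1.09%), and of Ebi3 8 (0.133%) and 38 (0.63%), from the few carrier cells given above. The acinar genes Prss2 (1.86 and 1.65) and Ctrb1 (1.40 and 1.27) were also higher in Areg carriers. Summed over 8 acinar markers, all of them with UMIs, Foxp3-positive carriers of any member were at 161 CPM at both ages against 78.6 and 58.8 CPM in Foxp3-positive cells with no member and 65.5 and 90.3 CPM in Foxp3-negative carriers. Islet endocrine markers were at 18.4 and 57.0 CPM against 10.7 and 20.2 CPM, with Ppy and Chga at 0 in the carriers. A list of 5 B cell markers was at 73.7 and 103 CPM against 59.6 and 79.0 CPM, with Ms4a1 at 0. Cd79a was also at 0 in the carriers at 16 weeks. In Foxp3-positive cells with no member, Cd79a and H2-Aa were at 0 at both ages. The part of acinar, endocrine and B cell RNA in the carrier differences was not tested. Mast cell and basophil markers, of cells known to use Il1rl1, were all at 0 in Foxp3-positive carriers.

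Foxp3-negative carriers of any member stood further from their class, with 246 of 9186 genes higher (2.68%), among them 14 of 29 tissue and effector genes and 8 of 11 identity genes, and 129 lower (1.4%). State and other-cell markers moved too: proliferation genes were at 1667 and 1438 CPM against 764 and 342 CPM in Foxp3-negative cells with no member, and CD8 T cell markers at 4017 and 5364 against 2649 and 2335 CPM. B cell markers were at 52.8 and 55.8 against 21 and 20.7 CPM, with Cd79a and Ms4a1 at 0 in the carriers. Naive or stem-like T cell markers were at 900 and 1010 against 2405 and 3400 CPM. Their part in the carrier differences was not tested. Foxp3-negative Il10 carriers (365 genes higher, 3.97%, and 190 lower, 2.07%) had Ctla4 at 718 against 91.8 CPM and 638 against 89.2 CPM, with a Ctla4 UMI in 19 of 22 and 27 of 29 carriers, and higher Havcr2 (4.03 and 3.09), an inhibitory receptor gene, and Prdm1 (3.24 and 3.01). Penk carriers (277 genes higher, 3.01%, and 125 lower, 1.36%) had higher Il1r2 (3.24 and 2.93), Havcr2 (2.28 and 3.59) and Ccr8 (2.16 and 2.13), a chemokine receptor gene of tissue regulatory T cells that 18 of 68 and 6 of 37 carriers held. Klrg1 carriers (445 genes, 4.84%) had Gzmk, a granzyme gene of CD8 effector cells, at 706 against 65.4 CPM and 584 against 75 CPM, in 7 of 12 and 9 of 14 carriers, and 0 of 11 identity genes were higher in them. Ebi3 carriers had 265 genes (2.88%) and Areg carriers 386 (4.20%).

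Lists of related genes placed the members among their neighbors. Of 30 measured tissue and effector genes, 17 were higher in Foxp3-positive cells at 8 weeks and 22 at 16 weeks, with none lower and medians of 1.24 and 1.39 against 0.08 and 0.13 over all genes. Itgae, the integrin of epithelial retention, was at 2.08 and 2.33, Ccr8 at 2.08 and 2.21, Lrrc32, which presents latent TGF-beta, at 2.53 and 3.38, Fgl2, a suppressive secreted protein, at 2.40 and 3.41 and Gzmb at 2.08 and 2.49. Gata3, a factor of tissue regulatory T cells, was at 0.64 and 0.67 and not called. Of the 11 identity genes 9 and 11 were higher, with medians of 1.86 and 2.02.

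Of the receptors and ligands that pair with the 6 proteins, 0 of 6 measured genes were called at 8 weeks and 0 of 5 at 16 weeks, beside the 3.56% and 4.78% of all genes called higher. Il10ra and Il10rb, the chains of the IL-10 receptor, were above 0 at both ages but under the fold, at 0.62 (interval 0.21 to 1.01) and 0.49 (0.01 to 0.92) and at 0.53 (0.17 to 0.88) and 0.57 (0.16 to 0.95). Il6st, the signal chain shared by many cytokine receptors, was at -0.13 and -0.39. Egfr, the receptor of amphiregulin, and the genes Il33, Il12a, Il27 and Oprd1, which encode ligands, partner chains or an opioid receptor, were at or near 0 UMIs in the sorted T cells. With age no gene of the 3 lists was called in Foxp3-positive cells, where the medians were -0.08 for partner, -0.13 for tissue and -0.15 for identity genes against -0.01 over all genes.

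Across 23 points, each a cluster in 1 library, the gene whose level ran most like that of a member was found among 4786 genes by Pearson's r on log2 levels. These r are descriptions: points of a library share its depth and its free RNA. Areg ran most like Foxp3 (0.89), with Ctla4 at 0.81 and Il10 at 0.79. Penk ran most like Nrn1 (0.90), a leading gene of the follicular helper T-like cluster, with Pdcd1 at 0.86 and Foxp3 at 0.39. Il10 ran most like Neb (0.94), and Klrg1 most like Gzmb (0.93), Ccl3 (0.90) and Prdm1 (0.87). Il1rl1 and Ebi3 both ran most like Ncmap (0.85 each).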

How the data were processed

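Raw UMI counts for each gene in each barcode, deposited by the authors as whole numbers without normalization, were used together with the receptor contig tables. The submitters' processing notes name mm10 and Seurat, and the aligner is not given in the sources used here. Cells were kept at 500 or more genes and at most 10% mitochondrial UMIs. The tools were matplotlib 3.10.9, scipy 1.17.1, scanpy 1.11.5 with leidenalg 0.10.2, pandas 2.3.3, anndata 0.12.19 and numpy 2.4.6 under Python 3.11.15. Clustering of both libraries (2000 variable genes without the 6 members, 30 components, 15 neighbors, Leiden resolution 1) gave 14 clusters, named from fixed markers. Dropping the acinar-like and B-like clusters left the T cells.

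Levels were summed counts per class, scaled to 1000000. Log2 ratios had 0.5 UMI added, with exact conditional intervals, and were checked on simulated counts. The simulated counts were independent Poisson draws, so the check does not cover UMIs that gather in few cells. Genes with 20 or more UMIs were measured, and members under 10 UMIs got counts only. Levels have Poisson intervals and shares Clopper-Pearson intervals. UMIs mark molecules, but intervals of levels and ratios leave out variation between cells, and all intervals leave out variation between mice. Intervals of clone shares also count cells of the same clone as independent. The members and lists were chosen with earlier results of these data known. List genes named with values had 10 or more UMIs, and carrier genes came from the 10 with the highest smaller log2 ratio. Start sequences came from RefSeq tables, which held windows for 3 of the 6 members.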

Additional observations from a re-analysis of the deposited data

How the results depend on the processing

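The sign of the Foxp3-positive against Foxp3-negative log2 ratio held for all 6 genes at both ages under all 13 alternatives run. The count of genes called at 8 weeks was 3 with at least 2 Foxp3 UMIs required. The count called with age in Foxp3-positive cells was 0 when cells of the regulatory T-like cluster counted as positive, and 1 without cells of 2 or more beta chains, by mean per-cell CPM, or without the proliferating-like cluster. In Foxp3-negative cells it was 1 with the cluster rule (Il10, 1.37) and 1 in Cd4-gated cells (Ebi3, 1.12). The share of carriers with a Foxp3 UMI was 21.2% and 24.6% after thinning, and 34.5% at 8 weeks without cells of 2 or more beta chains. Thinning lowered co-detection to 12.8% and 20.7% of Foxp3-positive and to 7.58% and 6.25% of Foxp3-negative carriers. Genes higher in carriers of any member numbered 32 with a minimum of 10 UMIs and 6 with 50 among Foxp3-positive cells, and 114 with 50 among Foxp3-negative cells. Apart from thinning and the UMI minimums, which leave fewer UMIs or other genes by construction, the cause was not tested. Leaving out cells with UMIs of both Cd4 and Cd8a or Cd8b1, or the cluster led by Clu, Spp1 and Krt18, was chosen after seeing the data. Depth limits Klrg1 and Il1rl1 most, with 10 to 30 UMIs per class and library. No paired analysis was possible because each age has 1 library and nothing ties the libraries to each other.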
